A study of Mus musculus with 18 samples.

Results

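The genes described are CD40 and the ligands through which a B cell engages T cells: Cd40, Cd80, Cd86, Icosl, Cd274, Pdcd1lg2, Tnfsf4, Cd83, Slamf1 and Slamf6, which is the current symbol of Ly108. They were taken by name from a fixed list and matched to identifiers in the GRCm38 annotation, which gave 10 of the 51912 genes in the table. No expression value enters the rule, but the list was chosen with earlier results of these data known. RNA was sequenced from B cells of C57BL/6 mice that were wildtype (WT) or lacked Sh3gl1, the gene for the membrane-trafficking protein endophilin A2 (Sh3gl1-/-). Each genotype was measured as transitional B cells and as follicular B cells, both sorted and untreated, and as follicular B cells kept with CD40L, the ligand of CD40, for 14 h by the labels, while the study's methods speak of overnight culture and its text elsewhere of a longer time. Each of the 6 groups had 3 biological replicates, and the 18 libraries held between 12404665 and 18366011 counts.

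The knockout was not restricted to B cells, since the cells came from knockout mice and their littermates. The cultured cells were set against cells taken directly from the mouse, so that an effect of CD40L and an effect of culture cannot be told apart. All groups are bulk samples, in which fewer cells of a type and less RNA per cell cannot be told apart either.

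CD40 is a receptor of the TNF-receptor family on B cells, and its ligand on helper T cells starts NF-kappaB signaling that licenses the B cell for germinal centers and antibody production. The B cell answers through surface ligands of its own: CD80 and CD86 give the CD28 signal or the CTLA-4 brake, ICOSL engages ICOS on follicular helper T cells, and PD-L1 and PD-L2, the products of Cd274 and Pdcd1lg2, engage the inhibitory receptor PD-1. OX40L, the product of Tnfsf4, engages OX40, CD83 stabilizes surface MHC class II and CD86 by opposing the ubiquitin ligase MARCH1, and SLAM and Ly108 bind their own kind on the partner cell and sustain T-B contact.

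The labels were first checked against the deleted gene. Sh3gl1 had 447 to 569 counts in the WT follicular libraries and 1 to 3 in the Sh3gl1-/- follicular libraries, which makes its level at least 148.0-fold lower. It had 377 to 591 against 4 to 11 counts in transitional cells and 802 to 929 against 11 to 22 in CD40L-cultured cells, so every library matched its genotype label. The cell type labels were set against marker genes. Summed over 6 B-cell markers, led by Cd79a, the libraries held between 8300 and 18300 CPM, the count scaled to the library size after TMM correction. The follicular markers Fcer2a, Ighd and Cr2 were higher in WT follicular than in WT transitional cells and all 4 transitional markers tested were lower, and Rag1 and Rag2 had 0 counts in every follicular library. Cd93, the marker by which transitional cells are commonly told apart, was 64.8 ± 7.37 CPM (SD, n = 3) in WT transitional and 12.9 ± 1.35 CPM in WT follicular cells.

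Positions are given on GRCm38. The SLAM genes Slamf1 (chr1:171767127-171801184) and Slamf6 (chr1:171917515-171953170) stand 116.3 kb apart on the plus strand, with 2 protein-coding genes between them, one of which is Cd84 of the same family. Cd274 (chr19:29367455-29388095) and Pdcd1lg2 (chr19:29410919-29471161) are neighbors on the plus strand, 22.8 kb apart with 0 protein-coding genes between them. Cd86 (chr16:36603869-36666081, minus strand) and Cd80 (chr16:38455561-38496335, plus strand) lie on the same chromosome, 1789.5 kb apart with 25 protein-coding genes between them. Icosl lies at chr10:78069302-78083913, Cd83 at chr13:43784775-43803132, Tnfsf4 at chr1:161395409-161418410 and Cd40 at chr2:165055627-165072948, all on the plus strand.

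The upstream sequences of the neighboring checkpoint ligands are shown because both transcripts fell in CD40L-cultured cells. Each run holds the 250 bases before the RefSeq start site on GRCm38.p6, 5′ to 3′ on the plus strand, in lower case, with motif matches in capitals.
Cd274, chr19:29367188-29367437: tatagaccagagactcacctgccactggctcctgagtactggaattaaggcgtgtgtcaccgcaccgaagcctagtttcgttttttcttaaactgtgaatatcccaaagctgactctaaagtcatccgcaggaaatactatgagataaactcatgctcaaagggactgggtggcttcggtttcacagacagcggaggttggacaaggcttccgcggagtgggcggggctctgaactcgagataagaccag
Pdcd1lg2, chr19:29410669-29410918: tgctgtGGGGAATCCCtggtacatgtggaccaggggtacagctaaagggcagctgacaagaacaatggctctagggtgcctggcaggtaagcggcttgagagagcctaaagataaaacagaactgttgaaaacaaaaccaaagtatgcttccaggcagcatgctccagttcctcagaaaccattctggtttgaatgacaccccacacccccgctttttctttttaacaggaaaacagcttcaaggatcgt
Windows of 300 bases (250 before and 50 after the start) were listed for 6 of the 10 genes: Slamf1, Slamf6, Icosl, Cd80, Cd274 and Pdcd1lg2. They were searched on both strands for the kappaB motif, the STAT element TTCNNNGAA, the AP-1 element TGANTCA and the octamer ATGCAAAT. The kappaB motif was found in the Pdcd1lg2 window only, beginning 244 bases before the start and read on both strands, and 4.51% of all 32851 windows hold one. The AP-1 letters, which read the same on both strands, were found in the Cd80 window only, beginning 42 bases before the start, and 7.81% of all windows hold them. The STAT element (8.3% of all windows) and the octamer (1.74%) were found in 0 of the 6 windows, which says only that these letters are not there.

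Levels of different genes were compared as TPM, which is scaled for transcript length. In WT follicular cells ex vivo, Cd83 (401.1 TPM, range 347.4 to 438.4) and Slamf6 (369.4 TPM, range 344.0 to 385.7) were the most abundant of the 10 and their ranges overlapped. Cd40 followed at 182.7 TPM and Icosl at 141.5 TPM, then Slamf1 (52.97 TPM) and Cd86 (48.55 TPM), whose ranges overlapped. Pdcd1lg2 stood at 21.15 TPM, Cd274 at 12.27 TPM, Cd80 at 0.49 TPM and Tnfsf4 at 0.07333 TPM. In WT transitional cells Slamf6 (396.5 TPM) stood above Cd83 (336.4 TPM) with overlapping ranges. Cd86, at 62.74 TPM, stood above Slamf1 at 51.51 TPM with no overlap, and Cd274 (12.21 TPM) stood above Pdcd1lg2 (6.46 TPM). After CD40L culture Cd83 led alone at 1278 TPM in WT cells, Slamf6 (416.0 TPM) and Cd40 (397.6 TPM) overlapped, and Cd80 (7.29 TPM) stood above Cd274 (4.73 TPM).

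**Figure D1:**
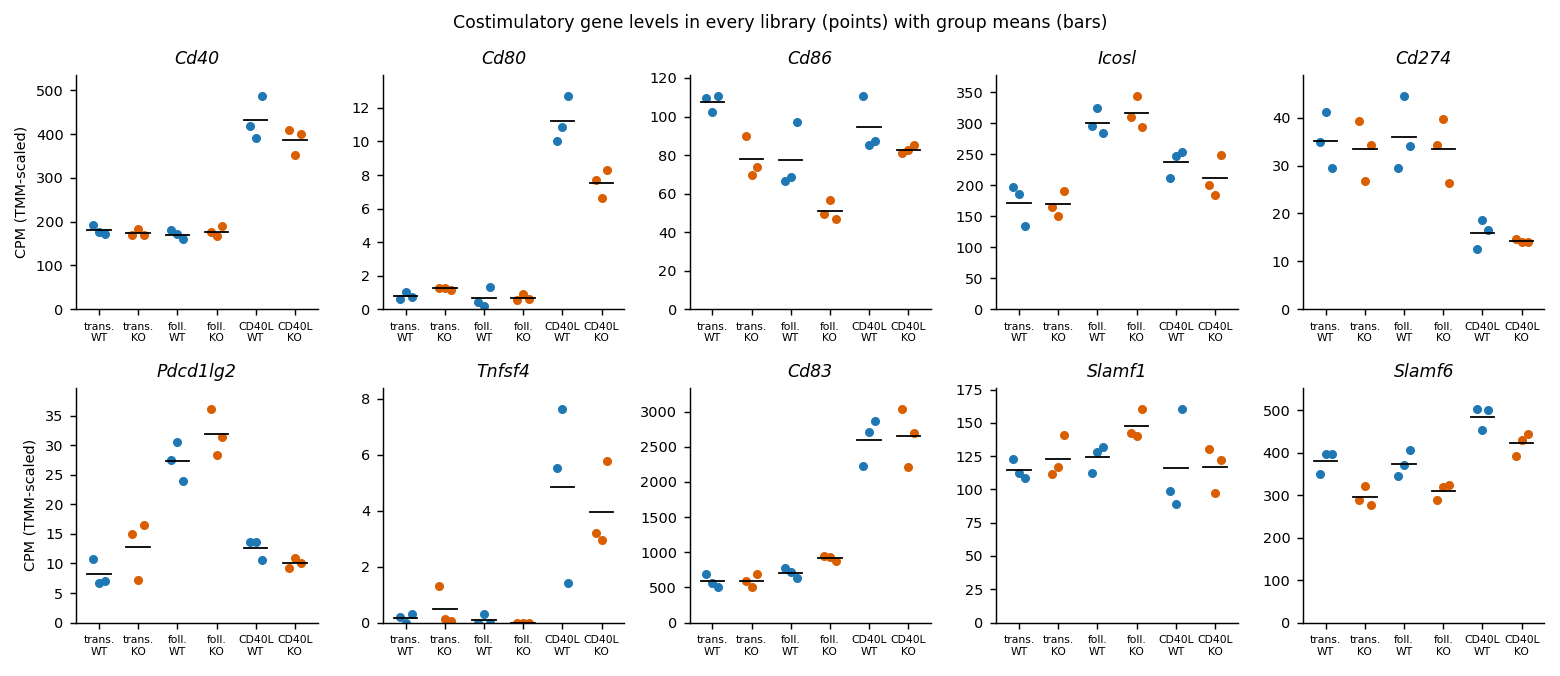
CPM on TMM-scaled library sizes of the 10 genes in each of the 18 libraries, by cell state (transitional, follicular ex vivo, follicular with CD40L) and genotype (WT blue, Sh3gl1-/- orange); bars are group means and each panel has its own axis from 0. Cd40, Cd80, Tnfsf4 and Cd83 are highest in the CD40L groups, Icosl and Pdcd1lg2 are highest in follicular cells ex vivo, and Cd274 is lowest in the CD40L groups.

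The response to CD40L was compared first, as cultured against ex vivo follicular cells within each genotype. Cd40, Cd80, Tnfsf4, Cd83 and Slamf6 rose in WT cells, while Cd274, Pdcd1lg2 and Icosl fell. The same 8 genes were called in the same directions in Sh3gl1-/- cells, where Cd86 rose as well. In the WT response 5 of the 10 genes were called higher and 3 lower at an adjusted p under 0.05 by edgeR's quasi-likelihood test, against 23.6% and 25.7% of all 14460 genes tested. In the Sh3gl1-/- response 6 were called higher and 3 lower, against 20.6% and 21.8% of all genes. Cd80 and Tnfsf4 are among those called higher in both genotypes, but were too low to be tested in follicular cells ex vivo alone. They entered these tests through the cultured groups, so a rise was the only call open to them. Their p-values for these responses are not given. Over the 10 genes the median log2 fold change was 0.30 in WT and 0.56 in Sh3gl1-/- cells, beside -0.08 and -0.03 over all genes tested. These medians and the counts called higher include Cd80 and Tnfsf4, so they are not read as a shift of the list. These shares of the table are large, so that a call by itself does not set a gene apart, and the sizes below carry more.

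Among the receptor and the B7 ligands, Cd40 rose by 1.31 ± 0.11 (log2 fold change ± SE, adjusted p = 3.8e-07) in WT and by 1.11 ± 0.11 (adjusted p = 2.3e-06) in Sh3gl1-/- cells. Cd80 had 3 to 18 counts in the WT follicular libraries and 145 to 208 after culture. Its fitted rise of 4.08 ± 0.45 became 5.08 without the third WT follicular library, which held 18 counts. Its rise in Sh3gl1-/- cells was 3.41 ± 0.45. Cd86 behaved differently from Cd80. Its CPM was 66.3, 68.6 and 97.2 in the WT follicular libraries and 110.5, 85.2 and 87.3 after culture, and these ranges overlapped. In Sh3gl1-/- cells it was 49.4, 56.7 and 46.9 before and 80.9, 82.6 and 85.0 after, with every cultured library above every ex vivo one. The fitted change of Cd86 was 0.26 ± 0.15 (adjusted p = 0.17) in WT and 0.68 ± 0.15 (adjusted p = 0.0024) in Sh3gl1-/- cells. The difference between these changes, 0.42 with a 95% interval from -0.03 to 0.88, did not pass the test (adjusted p = 0.59). The WT value depended on the third WT follicular library: without it Cd86 rose by 0.46 (adjusted p = 0.021). On the TPM scale, which the TMM factors do not correct, the WT mean was 48.55 before and 46.58 after culture, so that the direction in WT cells also depends on the scaling.

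Icosl, the ligand of ICOS, had 295, 324 and 284 CPM in the WT follicular libraries and 211, 247 and 253 after culture. The Sh3gl1-/- libraries had 309.7, 344 and 294 CPM before and 201, 184 and 248 after culture. The groups overlapped in neither genotype, and the change was -0.37 ± 0.12 (adjusted p = 0.020) in WT and -0.60 ± 0.12 (adjusted p = 0.0013) in Sh3gl1-/- cells. The WT call was lost without the second WT follicular library (-0.28, adjusted p = 0.12) or without the first WT cultured library (-0.31, adjusted p = 0.064).

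Both PD-1 ligands fell. Cd274 had 29.6, 44.6 and 34.1 CPM in WT follicular cells and 12.6, 18.6 and 16.5 after culture, and in Sh3gl1-/- cells 34.3, 39.7 and 26.5 became 14.7, 14.0 and 14.0. All cultured libraries lay below all ex vivo ones, with changes of -1.21 ± 0.19 (adjusted p = 0.00015) in WT and -1.26 ± 0.20 (adjusted p = 0.00017) in Sh3gl1-/- cells. Pdcd1lg2 had 27.6, 30.6 and 23.9 CPM in WT follicular cells and 13.6, 13.7 and 10.6 after culture. It had 36.1, 28.4 and 31.3 CPM in Sh3gl1-/- follicular cells and between 9.17 and 10.9 after culture. The ex vivo and cultured libraries again did not overlap, and the changes were -1.14 ± 0.16 (adjusted p = 5.1e-05) and -1.69 ± 0.16 (adjusted p = 2.4e-06). Of the 10 differences in response between the genotypes that of Pdcd1lg2, -0.55 with a 95% interval from -1.03 to -0.06, had the lowest unadjusted p, 0.031, and an adjusted p of 0.53.

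Markers of other leukocytes moved with these falls. The 7 macrophage and monocyte markers, whose most abundant gene was Lyz2, summed to 134, 143 and 168 CPM in WT follicular cells and to 71.0, 96.0 and 98.9 after culture, and 5 of the 7 were called lower and 1 higher. The 8 dendritic-cell markers, led by Ccr7, which activated B cells also use, summed to 334, 343 and 345 CPM before and 160, 186 and 216 after culture, with 4 of the 7 tested called lower and 1 higher. In the WT cultured libraries Itgax, Clec9a and C1qa had 0 counts and Lyz2 fell to 5.56 ± 0.877 CPM, while Adgre1 (3.01 ± 0.32) and Zbtb46 (2.26 ± 0.22) rose, to 63.9 ± 18.3 and 23.9 ± 5.46 CPM. Cd68 (0.38), Flt3 (0.38) and Xcr1 (0.62) were not called. The 4 NK-cell markers, led by Gzma, summed to 21.6, 27.9 and 61.7 CPM in WT follicular cells and to 2.69, 4.34 and 7.46 after culture, with 4 of 4 called lower in both genotypes. The neutrophil markers, led by Ngp, summed to 57.4, 66.8 and 162 CPM before and 9.11, 19.8 and 38.4 after culture in WT cells, with 4 of 6 tested called lower (5 of 6 in Sh3gl1-/- cells). The erythroid markers, led by Hba-a1, were all called lower in both genotypes, 3 of 3. Some of these markers, Itgax, Clec9a, C1qa, C1qb and Csf1r among them, were too low to be tested in cultured cells alone. A fall was the only call open to such markers. The part of these other cells in the levels ex vivo was not tested.

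Tnfsf4 was close to the limit of detection in cells ex vivo. It had 0, 5 and 0 counts in WT follicular cells and 80, 114 and 23 after culture, and it had 0 counts in all 3 Sh3gl1-/- follicular libraries and 45, 37 and 92 after culture. Every cultured library lay above every ex vivo one, and the third WT cultured library, at 1.41 CPM, was the lowest of the 6 cultured libraries. The fitted WT change was 5.33 ± 0.94. As said above, Tnfsf4 entered the test through the cultured groups, so the counts and bounds are given without a p-value. Without the second WT follicular library, which held all 5 ex vivo counts, the cultured level was at least 20.8-fold the follicular one against 3 counts in a library. Against 3 counts in a library, the level in Sh3gl1-/- cultured cells was at least 17.1-fold that in follicular cells. The fitted log2 value of a gene with no count in a group is no bound and is not read further. In transitional cells Tnfsf4 had 3, 0 and 4 counts in WT and 22, 2 and 1 in Sh3gl1-/- cells, most of them in 1 library.

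Cd83 was the most abundant of the 10 genes in CD40L-cultured cells. It had 782, 725 and 627 CPM in WT follicular cells and 2225, 2707 and 2865 after culture, and 941, 935 and 881 CPM in Sh3gl1-/- follicular cells and 3034, 2215 and 2700.1 after culture. The cultured groups of the 2 genotypes overlapped, while their ex vivo groups did not. The rise was 1.84 ± 0.12 (adjusted p = 6e-08) in WT and 1.51 ± 0.12 (adjusted p = 4.1e-07) in Sh3gl1-/- cells, and the difference of -0.33, with a 95% interval from -0.69 to 0.03, did not pass the test (adjusted p = 0.59).

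Of the SLAM-family members, Slamf6 rose in both genotypes and Slamf1 was not called in either. Slamf6 had 346, 372 and 407 CPM in WT follicular cells and 503, 453 and 499.9 after culture, a rise of 0.35 ± 0.10 (adjusted p = 0.0086). Its 289, 318 and 325 CPM in Sh3gl1-/- cells became 392, 430.4 and 445, a rise of 0.43 ± 0.10 (adjusted p = 0.0027), and neither genotype's groups overlapped. Slamf1 had 112, 128 and 132 CPM in WT follicular cells and 98.4, 89.3 and 160.2 after culture, with a fitted change of -0.13 ± 0.19 (adjusted p = 0.60). The third WT cultured library stood above the other 2, and without it the WT value was -0.42 (adjusted p = 0.028). In Sh3gl1-/- cells Slamf1 had 143, 140.3 and 160.2 CPM before and 130.3, 97.3 and 122 after culture, which did not overlap, and the fitted change of -0.36 ± 0.19 was not called (adjusted p = 0.13), but was without the third WT cultured library, which enters the shared estimate of the spread (-0.35, adjusted p = 0.035).

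The difference between the responses of the genotypes was tested in the same fit. Of all 14460 genes, 0.0% were called by edgeR, with 1278 genes at an unadjusted p under 0.05 and 37 called by DESeq2. Of the 10 genes 0 were called by either tool and 1 had an unadjusted p under 0.05. The intervals given above therefore bound the differences, and they do not show that the responses were alike.

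**Figure D2:**
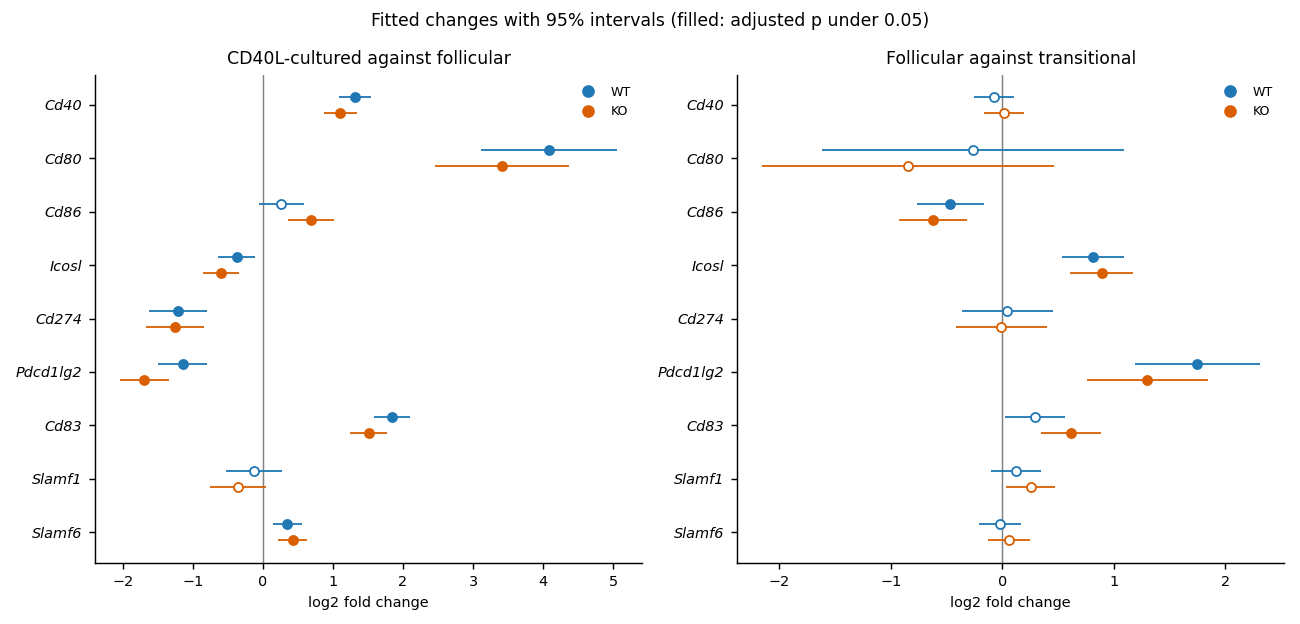
Fitted log2 fold changes (points) with 95% intervals (lines) of 9 of the genes for CD40L-cultured against ex vivo follicular cells (left) and follicular against transitional cells (right), in WT (blue) and Sh3gl1-/- cells (orange); filled points passed an adjusted p under 0.05. Tnfsf4 is left out because a group had 0 counts or the gene was not tested. Cd83 lies at 1.84 and 1.51 on the left, and Pdcd1lg2 is below 0 on the left and above 0 on the right in both genotypes.

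Related genes were read from 6 lists with 57 genes in all, of which 49 could be tested. In WT cells 20 rose and 20 fell with CD40L culture, and in Sh3gl1-/- cells 16 rose and 18 fell. Over all genes tested, as above, 23.6% rose and 25.7% fell in WT cells and 20.6% and 21.8% in Sh3gl1-/- cells, and the counts of each list below stand against these shares. Their median log2 fold change was 0.06 in WT and 0.05 in Sh3gl1-/- cells, beside -0.08 and -0.03 over all genes. Cd70 was too low to be tested in follicular cells ex vivo alone, so a rise was the only call open to it. Tnfsf8, Cd276, Slamf8 and Sh2d1b1 were too low to be tested in cultured cells alone, so a fall was the only call open to them. The counts of their lists include these genes.

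In the list of CD40-proximal signaling, 10 of 16 genes rose and 3 fell in WT cells, and 7 rose and 2 fell in Sh3gl1-/- cells. Traf1, an adaptor of TNF-family receptors, rose from 36.8 ± 8.22 to 557 ± 50.2 CPM (SD, n = 3) in WT cells, by 3.89 ± 0.17 (SE, adjusted p = 1.6e-09), and by 3.56 in Sh3gl1-/- cells. Tnfaip3, which encodes the NF-kappaB inhibitor A20, rose by 3.69 and 3.32, and Nfkbie, which encodes an inhibitory IkappaB protein, by 1.77 and 1.86. Traf5, another adaptor, fell by 1.93 in WT and 1.75 in Sh3gl1-/- cells, and Map3k14, the NF-kappaB-inducing kinase, fell by 0.89 and 0.76. Rel, a subunit of NF-kappaB, fell by 0.31 in WT cells (adjusted p = 0.023) and was at 0.18 in Sh3gl1-/- cells (adjusted p = 0.17).

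Among the other TNF-family ligands, 3 of the 6 tested rose and 2 fell in WT cells, and 3 rose and 0 fell in Sh3gl1-/- cells. Tnfsf9, the gene for 4-1BB ligand, rose from 1.99 ± 0.302 to 12.7 ± 6.54 CPM in WT cells, by 2.65 ± 0.40 on the log2 scale, and by 3.02 in Sh3gl1-/- cells. Cd70, the CD27 ligand, had 0 counts in all 6 follicular libraries ex vivo and reached 1.82 ± 0.441 CPM in WT and 1.27 ± 0.677 CPM in Sh3gl1-/- cultured cells, at least 7.8-fold and 5.5-fold higher against 3 counts in a library. Tnf rose by 0.41 and 0.55, and Tnfsf8 (CD30 ligand) and Ltb (lymphotoxin beta) fell by 3.15 and 1.37 in WT cells. In Sh3gl1-/- cells Tnfsf8 was at -1.69 (adjusted p = 0.082) and Ltb at -0.57 (adjusted p = 0.30).

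Of the other B7 and butyrophilin genes 2 of 6 could be tested and both fell in both genotypes. Vsir, which encodes the inhibitory ligand VISTA, went from 10.6 ± 1.59 to 2.68 ± 0.608 CPM in WT cells (-2.01 ± 0.29, adjusted p = 6.1e-05) and by -2.27 in Sh3gl1-/- cells. Cd276 fell by 4.01 and 4.07, from 2.85 ± 0.829 CPM in WT cells. Of the 2 genes for ubiquitin ligases that turn over CD86, March1 fell from 377 ± 30.6 to 71.6 ± 6.09 CPM in WT cells (-2.42 ± 0.13, adjusted p = 5.9e-09) and by -2.12 in Sh3gl1-/- cells, and March8 was not called in either genotype.

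Of the 9 other SLAM-family genes and adaptors, 4 rose and 4 fell in WT cells, and 3 rose and 4 fell in Sh3gl1-/- cells. Slamf7 rose from between 98.1 and 137 CPM to between 306 and 458 CPM in WT cells, by 1.58 ± 0.16 (adjusted p = 2.7e-06), and by 1.63 in Sh3gl1-/- cells. Cd244a (2B4) rose by 1.25 and 0.81 and Ly9 by 1.1 and 0.88, while Cd84, which lies between Slamf1 and Slamf6, fell by 0.88 and 0.91. Slamf8 had 0 counts in all 6 cultured libraries and was at least 6.1-fold lower in WT and 5.6-fold lower in Sh3gl1-/- cultured cells. Sh2d1a, the gene for the adaptor SAP of T and NK cells, fell by 1.99 and 2.54. It moved with the T-cell markers: the 7 of them, led by Lck, summed to 163, 186 and 198 CPM in WT follicular cells and to 67.0, 85.5 and 103 after culture, and all 7 were called lower in both genotypes, as were the 4 NK-cell markers given above. Of the 7 macrophage and monocyte markers, 5 were called lower and 1 higher in each genotype. The part of T cells, NK cells, macrophages and monocytes in the SLAM-family values was not tested.

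Of the other T-B contact receptors, 3 of the 14 tested rose and 8 fell in WT cells, and 3 rose and 9 fell in Sh3gl1-/- cells. Havcr1, the gene for TIM-1, rose by 4.69 ± 0.35 and 3.59 ± 0.33, to 77.9 ± 25.8 CPM in WT cells. Icam1, the ligand of the integrin LFA-1, rose by 2.73 and 2.48, while Icam2, another LFA-1 ligand, changed by -2.15 and -2.14. Cd72 rose by 0.30 and 0.34. Cd38, an ectoenzyme of resting B cells, fell by 3.22 and 3.08, from 761 ± 10.2 to 83.4 ± 14.6 CPM in WT cells. Cd27 changed by -2.36 and -1.91 and Cd24a by -1.89 and -2.06, all called. The T-cell markers fell as well, as given above, and the part of T cells in the Cd27 value was not tested. Where a related gene was called in 1 genotype alone, the difference between the responses was not called.

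**Figure D3:**
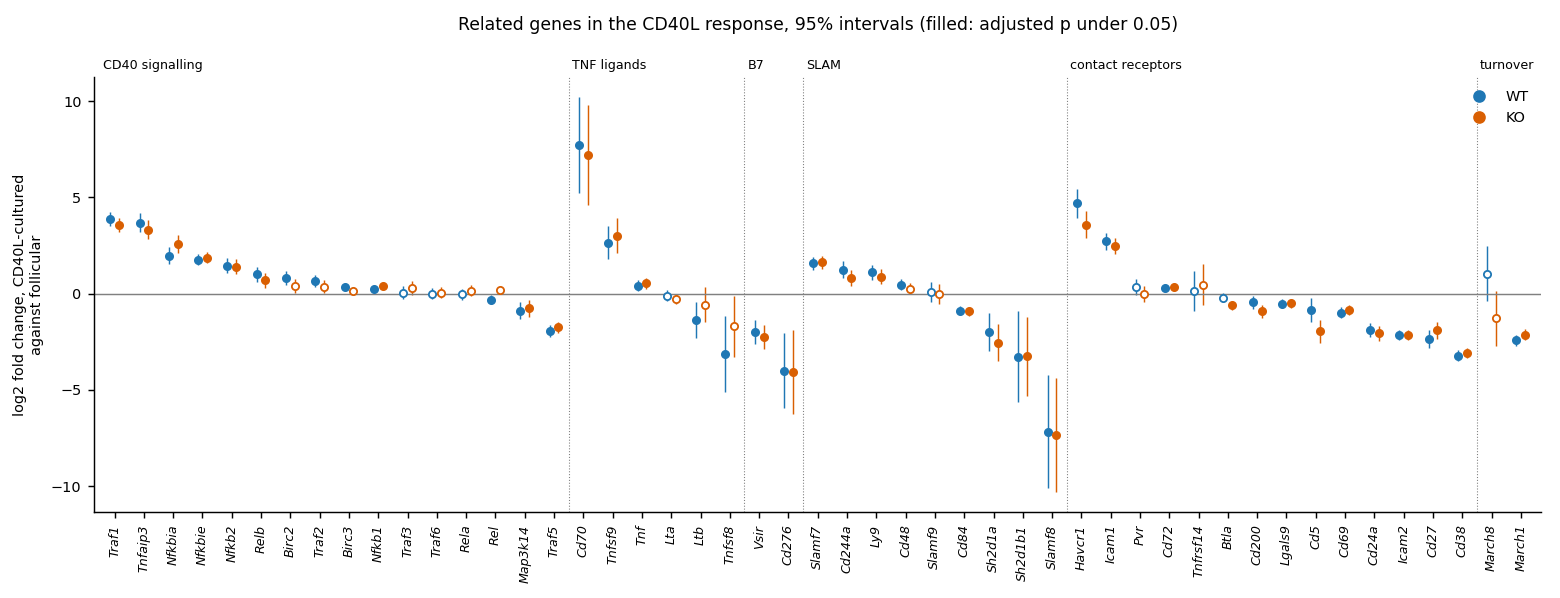
Log2 fold changes with 95% intervals of the 49 related genes tested, for CD40L-cultured against ex vivo follicular cells in WT (blue) and Sh3gl1-/- cells (orange); the genes are grouped by list and ordered within it by the WT value, and filled points passed an adjusted p under 0.05. Traf1 stands at 3.89 and 3.56 and March1 at -2.42 and -2.12; the intervals of genes with few counts, such as Cd70 and Slamf8, are wide.

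Follicular cells were then compared with transitional cells of the same genotype. Icosl and Pdcd1lg2 were higher and Cd86 lower in follicular cells of both genotypes, and Cd83 was higher in Sh3gl1-/- follicular cells. Of the 9 genes tested (Tnfsf4 was too low), 2 were called higher and 1 lower in WT cells, against 11.7% and 14.2% of all 14580 genes, with a median log2 fold change of 0.05 beside 0.03 over all genes. In Sh3gl1-/- cells 3 were called higher and 1 lower, against 3.7% and 6.71% of all genes, with a median of 0.06 beside -0.01 over all genes. These comparisons share the follicular libraries with the CD40L responses.

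Icosl had 197, 185 and 134 CPM in WT transitional cells, all below the 284 to 324 CPM of WT follicular cells, and 165, 151 and 191 CPM in Sh3gl1-/- transitional cells, below the 294 to 344 CPM of the follicular ones. The rise was 0.82 ± 0.13 (adjusted p = 0.00058) and 0.89 ± 0.13 (adjusted p = 0.00057). Pdcd1lg2 had 10.7, 6.7 and 7.1 CPM in WT transitional cells and 14.9, 7.2 and 16.4 CPM in Sh3gl1-/- ones, again below every follicular library of the genotype. Its rise of 1.75 ± 0.26 (adjusted p = 0.00035) in WT and 1.3 ± 0.25 (adjusted p = 0.004) in Sh3gl1-/- cells had no counterpart in its neighbor Cd274, at 0.04 ± 0.19 and -0.01 ± 0.19.

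Cd86 had 109.7, 102 and 111 CPM in WT transitional cells and 66.3 to 97.2 CPM in WT follicular cells, which did not overlap. It was lower in follicular cells by -0.47 ± 0.14 (adjusted p = 0.025) in WT and -0.62 ± 0.14 (adjusted p = 0.011) in Sh3gl1-/- cells. The WT call was lost without the first (adjusted p = 0.061) or the third (0.062) transitional library or without the first (0.11) or second (0.094) follicular library, and the Sh3gl1-/- call without the first transitional (0.058) or the third follicular library (0.062). The macrophage and monocyte markers moved with it: they summed to 558, 582 and 666 CPM in WT transitional cells and to 134, 143 and 168 CPM in WT follicular cells, and 7 of 7 were called lower. The Sh3gl1-/- libraries summed to 509, 747 and 911 CPM against 142, 265 and 309, with 5 of 7 called lower, with no overlap. The plasma-cell markers summed to 492, 670 and 720 CPM in WT transitional and 110, 161 and 180 CPM in WT follicular cells, and to 1150, 2840 and 4600 against 176, 192 and 200.1 CPM in Sh3gl1-/- cells, with 2 of 5 called lower in each genotype. The marginal zone markers summed to 349, 353 and 366 CPM in WT transitional and 183, 183 and 225 CPM in WT follicular cells and to 212, 239 and 258 against 152, 154 and 160 CPM in Sh3gl1-/- cells, with 3 of 5 called lower in each. The part of these cells in the Cd86 value was not tested.

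Cd83 had 694, 558 and 499.8 CPM in WT transitional cells, which overlapped with the WT follicular cells (0.29 ± 0.12, adjusted p = 0.10). With the replicate numbers as blocks within each genotype this value was called (0.30, adjusted p = 0.025), as it was without the first WT transitional library (0.43, adjusted p = 0.022). In Sh3gl1-/- cells 595, 508 and 685 CPM stood below 881 to 941 CPM, a rise of 0.61 ± 0.13 (adjusted p = 0.0057). The difference between the genotypes, 0.32 with a 95% interval from -0.06 to 0.70, did not pass the test (adjusted p = 0.45). Of all genes 0.0686% were called for such a difference. Of the 9 genes 0 were called by edgeR or by DESeq2, and 0 had an unadjusted p under 0.05.

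Of the 49 related genes tested, 6 were higher and 9 lower in WT follicular than transitional cells, against 11.7% and 14.2% of all genes. In Sh3gl1-/- cells 5 were higher and 2 lower, against 3.7% and 6.71% of all genes. Their median log2 fold change was -0.11 in WT and 0.02 in Sh3gl1-/- cells, beside 0.03 and -0.01 over all genes. The TNF-family genes Lta and Tnf rose by 1.05 (adjusted p = 6.3e-05) and 1.04 in WT and by 0.86 and 1.41 in Sh3gl1-/- cells, and Traf1 rose by 1.28 and 1.02. Nfkb1 rose by 0.21 and Traf2 fell by 0.30 in WT cells. Of the SLAM genes Cd84 rose by 0.29 and 0.31 and Slamf9 fell by 2.39 and 2.52, from 48.5 ± 5.8 to 9.14 ± 1.57 CPM in WT cells. The macrophage and monocyte markers fell in the same comparisons, as given above, and the part of these cells in the Slamf9 value was not tested. Ly9 fell by 0.43 and Sh2d1b1 by 2.42 in WT cells. Of the contact receptors Cd69, an activation marker, rose by 0.76 and 0.47, Cd24a fell by 0.91 and 0.80, and Cd72 fell by 0.67 and Havcr1 by 1.16 in WT cells. None of the genes named for WT cells alone was called for a difference between the genotypes.

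Sh3gl1-/- cells were compared with WT cells within each state. Cd86 was lower in Sh3gl1-/- cells in all 3 states and so was Slamf6, with no overlap between the genotypes in CPM in any state, but 1 of these 6 differences passed the test, that of Cd86 in transitional cells, and only just. In transitional cells 1 of the 9 genes tested was called, against 3.73% of all 13774 genes, and 3 of 9 had groups that did not overlap, against 28.0% of all genes. In follicular cells ex vivo 0 of the 8 tested were called by edgeR, against 0.845% of all 13610 genes, while 4 had an unadjusted p under 0.05, beside 1481 of all genes, and 2 were called by DESeq2, beside 355 of all genes. There 4 of 8 did not overlap, against 16.0% of all genes. In CD40L-cultured cells 0 of 10 were called by edgeR or DESeq2, against 0.0227% of all 13188 genes, 1 had an unadjusted p under 0.05, beside 932 of all genes, and 3 did not overlap, against 13.8% of all genes. The median log2 differences of the genes tested were -0.02, 0.06 and -0.15 in transitional, follicular and cultured cells, beside 0.02, 0.00 and 0.01 over all genes.

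In transitional cells Cd86 had 109.7, 102 and 111 CPM in WT and 89.9, 69.8 and 73.7 CPM in Sh3gl1-/- libraries. The difference was -0.47 ± 0.11 (95% interval from -0.71 to -0.22, adjusted p = 0.0495, exact permutation p = 0.1, the smallest that 3 against 3 allows). This call was lost without any 1 of the 6 libraries (adjusted p between 0.077 and 0.20), with replicate numbers taken as blocks (0.074), with a minimum of 10 counts in 3 libraries (0.052) and in a fit over all 18 libraries (0.12). The replicate numbers did not pair the genotypes in transitional cells (correlations of 0.052, -0.134 and -0.068), so little is read from the blocked fit. In follicular cells Cd86 had 66.3, 68.6 and 97.2 CPM in WT and 49.4, 56.7 and 46.9 CPM in Sh3gl1-/- libraries, a difference of -0.60 ± 0.15 (95% interval from -0.93 to -0.28, adjusted p = 0.11). DESeq2 called it (adjusted p = 0.0047), as did edgeR with all genes of at least 1 count (6.8e-05), but both settings called more genes in the whole table too. Leaving out any 1 library gave no call of Cd86 by edgeR (adjusted p between 0.10 and 0.34). In cultured cells 85.2 to 110.5 CPM stood against 80.9 to 85.0 CPM, a gap of less than 1 CPM between the closest libraries, and the difference was -0.16 ± 0.14 (adjusted p = 0.80). As TPM the cultured groups overlapped, at 43.07 to 53.14 in WT and 43.42 to 48.02 in Sh3gl1-/- cells.

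Slamf6 had 349, 398 and 397 CPM in WT and 288, 321 and 277 CPM in Sh3gl1-/- transitional cells, a difference of -0.37 ± 0.09 (95% interval from -0.57 to -0.16, adjusted p = 0.062), which DESeq2 called (0.0042). Leaving out any 1 library gave no call by edgeR (adjusted p between 0.054 and 0.23). In follicular cells the difference was -0.27 ± 0.08 (adjusted p = 0.22) and in cultured cells -0.17 ± 0.11 (adjusted p = 0.76). The lowest WT library stood above the highest Sh3gl1-/- library by the smallest margin in cultured cells, at 453 against 445 CPM, and as TPM the cultured groups overlapped (401.2 to 436.1 against 356.8 to 426.4).

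Cd83 was higher in Sh3gl1-/- follicular cells, at 881 to 941 against 627 to 782 CPM, by 0.37 ± 0.08 (95% interval from 0.18 to 0.55), and was not called (adjusted p = 0.080). DESeq2 called it (0.0029), as did a fit with replicate numbers as blocks (0.020). These numbers did not pair the genotypes in follicular cells (correlations of 0.049, -0.03 and -0.074), so the blocked fit adds no support of its own. Leaving out any 1 library gave no call of Cd83 by edgeR (adjusted p between 0.068 and 0.29). Cd83 lay at 0.03 ± 0.14 in transitional and 0.06 ± 0.14 in cultured cells, where the groups overlapped. Slamf1 was also higher in Sh3gl1-/- follicular cells with no overlap, at 140.3 to 160.2 against 112 to 132 CPM (0.25 ± 0.10, adjusted p = 0.35). Cd80 was lower in Sh3gl1-/- cultured cells, with 109, 83 and 133 counts against 145, 163 and 208 (-0.54 ± 0.21, adjusted p = 0.67), and it was higher with no overlap in Sh3gl1-/- transitional cells, where it had 9 to 22 counts in a library.

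The other genes gave no call and overlapped between the genotypes in every state where they were tested. Icosl differed by -0.02 ± 0.15, 0.07 ± 0.09 and -0.14 ± 0.14 in transitional, follicular and cultured cells. Cd274 differed by -0.07 ± 0.17, -0.11 ± 0.18 and -0.13 ± 0.20. Pdcd1lg2 differed by 0.65 ± 0.32 (95% interval from -0.06 to 1.36), 0.22 ± 0.13 and -0.31 ± 0.21, the transitional value resting on libraries of 14.9, 7.2 and 16.4 CPM in Sh3gl1-/- cells. Cd40 differed by -0.05 ± 0.09, 0.06 ± 0.09 and -0.13 ± 0.12, and Tnfsf4 by -0.26 ± 0.54 in cultured cells.

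**Figure D4:**
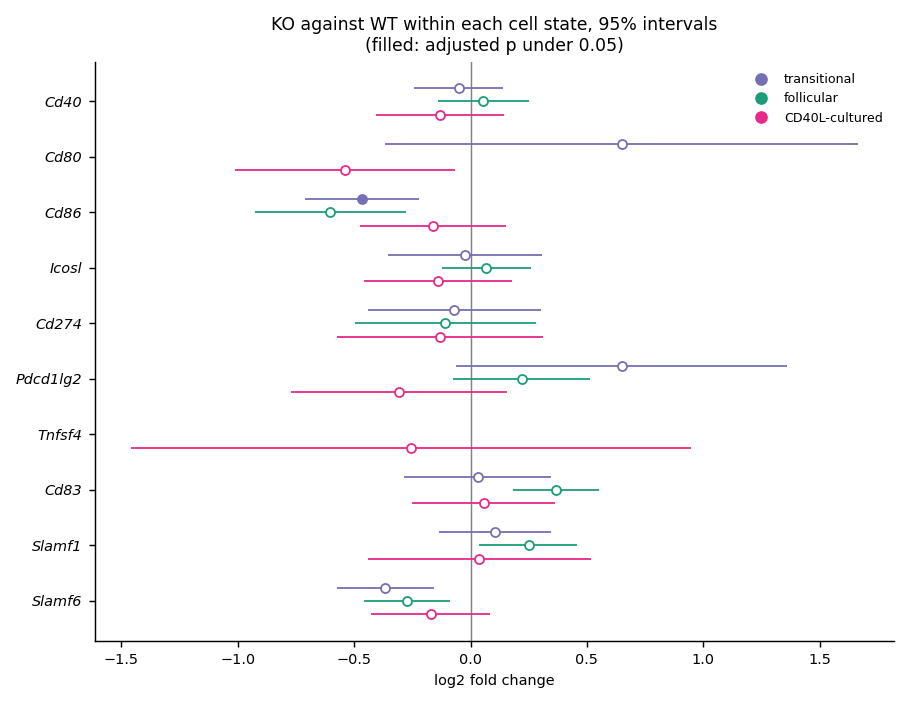
Log2 fold changes of Sh3gl1-/- (KO) against WT cells with 95% intervals, for each of the 10 genes in transitional (purple), follicular ex vivo (green) and CD40L-cultured cells (pink); the filled point, Cd86 in transitional cells at -0.47, is the 1 value with an adjusted p under 0.05. Cd86 and Slamf6 lie below 0 in all 3 states, and a missing point marks a gene too low to be tested.

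Of the related genes, Cd24a was lower in Sh3gl1-/- cells ex vivo, at 163 to 246 against 309 to 397 CPM in transitional (-0.87 ± 0.15, adjusted p = 0.026) and 115 ± 5.7 against 193 ± 17.6 CPM in follicular cells (-0.75 ± 0.09, adjusted p = 0.0041). Cd24a is also one of the transitional markers, which summed to 874, 988 and 1010 CPM in WT and 505, 609 and 803 CPM in Sh3gl1-/- transitional cells. Their sums were 374, 434 and 459 against 299, 303 and 313 CPM in follicular cells. In cultured cells they were 52.7, 82.8 and 85.7 against 33.4, 39.6 and 48.0 CPM. In follicular cells Vpreb3 was lower (-0.37 ± 0.10) but Cd93 was higher with no overlap (0.71 ± 0.21), and neither was called. The receptor of CD70, Cd27, was higher in Sh3gl1-/- follicular cells (0.78 ± 0.15, adjusted p = 0.047). The 7 T-cell markers had a median log2 difference of 0.87 in the same libraries, with 2 called higher and 0 lower. The part of T cells in the Cd27 value was not tested. In transitional cells Ly9 was lower (-0.46 ± 0.08, adjusted p = 0.025), at 236 ± 7.4 against 324 ± 15.1 CPM, and Btla, an inhibitory receptor, was higher (0.41 ± 0.07, adjusted p = 0.025). Of the related genes 1 was higher and 1 lower of 48 tested in follicular cells, where 0.845% of all genes were called, and 1 higher and 2 lower of 49 in transitional cells, where 3.73% were. In cultured cells 0 of 45 were called by edgeR, while 4 (Rel, Cd24a, Cd27 and Cd72) had an unadjusted p under 0.05, beside 932 of all 13188 genes. The median log2 differences of the related genes between Sh3gl1-/- and WT cells were -0.01, 0.03 and -0.04 in transitional, follicular and cultured cells, beside 0.02, 0.00 and 0.01 over all genes.

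Markers of other cells differed between the genotypes too. Of the 7 T-cell markers 2, Cd3e and Cd3d, were called higher in Sh3gl1-/- follicular cells, and the list summed to 248, 258 and 296 CPM there against 163, 186 and 198 CPM in WT cells. The 6 counter-receptors on T cells, led by Cd28, had higher sums in Sh3gl1-/- cells with no overlap in any state, at 24.2, 30.8 and 33.2 against 10.7, 12.5 and 16.3 CPM in transitional cells, 30.3, 34.5 and 42.0 against 19.2, 21.2 and 22.6 CPM in follicular cells and 11.1 to 15.01 against 6.3 to 11.04 CPM in cultured cells, with Cd28 called in transitional cells (1.34 ± 0.25, adjusted p = 0.028). The follicular marker Ighd was called higher in Sh3gl1-/- transitional (0.56 ± 0.11, adjusted p = 0.030) and follicular cells (0.34 ± 0.07, adjusted p = 0.048). The 3 erythroid markers, led by Hba-a1, were all called higher in Sh3gl1-/- transitional cells, where they summed to 1160, 2410 and 2550 CPM against 606, 820 and 1060 CPM. The 5 plasma-cell markers, led by Jchain, summed to 1150, 2840 and 4600 CPM in Sh3gl1-/- and 492, 670 and 720 CPM in WT transitional cells, with Jchain called. The 7 neutrophil markers, led by Ngp, summed to 105, 160 and 525 CPM against 47.2, 53.3 and 90.2 CPM there, with Camp called. They summed to 162, 277 and 747 against 57.4, 66.8 and 162 CPM in follicular cells and to 47.5, 47.7 and 177 against 9.11, 19.8 and 38.4 CPM in cultured cells. In follicular cells edgeR called 0 of the 6 tested, with 5 at an unadjusted p under 0.05, and in cultured cells 0 of 4, with 4 at an unadjusted p under 0.05. The B-cell markers summed to 12300, 13000 and 15900 CPM against 15700, 17900 and 18300 CPM in transitional cells, to 10700, 11200 and 11400 against 11900, 12400 and 12500 CPM in follicular cells and to 8300, 8490 and 8860 against 9200, 9450 and 9550 CPM in cultured cells, with 0 of 6 called in each state. The 5 marginal zone markers, led by Cd1d1, had lower sums in Sh3gl1-/- cells with no overlap in any state, at 212, 239 and 258 against 349, 353 and 366 CPM in transitional cells, 152, 154 and 160 against 183, 183 and 225 CPM in follicular cells and 73.2, 76.8 and 100 against 111, 112 and 113 CPM in cultured cells, with Cd1d1 called in transitional cells and no other call. The macrophage and monocyte markers summed to 142, 265 and 309 against 134, 143 and 168 CPM in follicular cells, with 0 of 7 called. There C1qa (1.05), C1qb (1.03), Lyz2 (0.74), Ly6c2 (0.62) and Cd68 (0.47) had an unadjusted edgeR p under 0.05. Csf1r (0.26) and Adgre1 (-0.01) did not. The sums overlapped in transitional (509 to 911 against 558 to 666 CPM) and cultured cells (50.6 to 81.0 against 71.0 to 98.9 CPM). The part of these differences in the lower Cd86 and Slamf6 of Sh3gl1-/- cells, and in the related genes named above, was not tested.

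Across all 18 libraries the genes fell into sets by how their log2 CPM varied, which describes the same groups and adds no replicates. Cd40, Cd80 and Cd83 rose and fell together (Pearson r between 0.875 and 0.954), Cd274 ran opposite to Cd40 (-0.929), and Icosl and Pdcd1lg2 followed each other (0.83), while Cd86 ran opposite to Pdcd1lg2 (-0.699). Among 12915 genes with a mean of at least 1 CPM, the nearest to Cd83 were Slc2a6 (0.985) and Traf1 (0.983), and to Cd40 Pgk1 (0.99) and Nhp2 (0.989). Nearest to Cd80 were Havcr1 (0.978) and Arl6 (0.972), and to Tnfsf4 Scamp2 (0.95) and Avpi1 (0.925). Nearest to Cd274 were Sgk1 (0.963) and Il16 (0.958), to Pdcd1lg2 Stat4 (0.94) and Prkd2 (0.919), and to Icosl Stat4 (0.908) and Pdlim7 (0.897). Slamf6 was nearest to Grhpr (0.913) and Fcgr2b (0.909). Cd86 (Gm12493, 0.85, and Plxnd1, 0.841) and Slamf1 (Gm36948, 0.788, and Dclre1b, 0.78) had the lowest values for their nearest genes.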

How the data were processed

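RNA from 18 samples in 6 groups of 3 was analysed from 1 table of 51912 genes. The authors deposited RSEM expected counts, which are not normalized, and TPM, the authors' estimate of a transcript's share of a library scaled for its length. The submitters' processing notes name cutadapt 1.9.1, STAR 2.5.2a, RSEM 1.3.0 and GRCm38, while the study's methods name TopHat and Cufflinks and another library kit than the stranded kit in the labels. The strand setting of the counting is not given in the sources used here, so reads of a gene and an antisense partner may not be told apart. A further 18 columns of FPKM were not used.

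Expected counts were rounded. Tests were run with edgeR 4.0.16 (R 4.3.3, limma 3.58.1), using TMM, filterByExpr by group, estimateDisp, glmQLFit and glmQLFTest, with Benjamini-Hochberg adjustment over all genes tested and calls at an adjusted p under 0.05. Genotypes were fitted within each state on 6 libraries, and the CD40L responses, the follicular against transitional comparisons and their differences between genotypes on 12 libraries each. A log2 SE is the size of the change divided by the square root of F. For single genes a two-sided exact permutation test over the 6 libraries was added; it cannot go below p = 0.1. Lower bounds use 3 counts in a library, which is 0.1633 to 0.2418 CPM; they cover counting error only. The methods were tested on simulated data.

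The 10 genes, the related genes (6 lists) and the markers were chosen with earlier results of these data known. Of each list of related genes up to 3 genes in each direction with the lowest adjusted p and groups that did not overlap were named for the CD40L responses and for WT follicular against transitional cells, and every called gene of these lists elsewhere. For likeness, the 2 genes with the highest Pearson r were named. Gene positions came from GENCODE M21 and promoter windows from RefSeq on GRCm38.p6. The labels call the replicates biological and from littermates and do not say which number marks which litter or mouse. Same-numbered libraries deviated together, with every correlation over 0.1, for WT CD40L against WT follicular (0.206 to 0.315), WT follicular against transitional (0.152 to 0.346) and Sh3gl1-/- follicular against transitional cells (0.172 to 0.358), so that the numbers pair these libraries by this check. The values reported are from fits without the block, and the blocked value is given where it changes a call. For Sh3gl1-/- CD40L against follicular cells the lowest was 0.037, and between genotypes the correlations lay between -0.134 and 0.139. Alternatives were DESeq2 1.42.0, RLE factors, other count filters, replicate blocks, a fit over all 18 libraries and leaving out each library. The values of 1 gene in the marker lists are not reported here.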

Additional observations from a re-analysis of the deposited data

How the results depend on the processing

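The counts of genes that differed between the genotypes depended most on the processing. DESeq2 and edgeR with all genes of at least 1 count called more genes: 37 and 210 for the difference in CD40L response (0 by the test used), 355 and 602 in follicular cells (115), 79 and 216 in CD40L-cultured cells (3), 1361 and 1426 in transitional cells (514), and 365 and 462 for the difference in follicular against transitional cells (10). With the replicate block these counts were 212 in follicular, 21 in cultured and 90 in transitional cells and 20 for the follicular against transitional difference, and 99 for that difference with the replicate block within genotype, an alternative chosen after seeing the data. By the check above the numbers did not pair the genotypes, so the block across genotypes joins libraries that were not seen to belong together. The fit over all 18 libraries gave 49, 82, 144 and 0. Of the 10 genes described, DESeq2 and the filter at 1 count each called 2 in follicular cells (Cd86 and Cd83) and 2 in transitional cells (Cd86 and Slamf6), and the replicate block called 1 (Cd83) in follicular and 0 in transitional cells. In transitional cells a minimum of 10 counts in 3 libraries and the fit over 18 libraries each called 0. The replicate block changed no other call of the 10 genes than Cd83 in follicular cells, Cd86 in transitional cells and, as a block within genotype, Cd83 in WT follicular against transitional cells. In the fit over 18 libraries Cd274 stood at 0.00 in Sh3gl1-/- follicular against transitional cells. The causes of these changes were not tested. Leaving out 1 library gave 32 (without the first Sh3gl1-/- library) to 112 genes in follicular cells, 28 (without the third Sh3gl1-/- library) to 479 in transitional cells, and 1 to 9 (without the third WT library) in cultured cells. It gave 2444 (without the first WT follicular library) to 3773 genes for WT follicular against transitional cells, where 3772 were called. It gave 986 (without the third Sh3gl1-/- follicular library) to 1647 for Sh3gl1-/- cells (1518), 0 to 23 for their difference and 0 to 1 for the difference in CD40L response; Cd86 in transitional cells, the 1 gene described that was called there, gave 0 calls in each. Values not called that changed sign when 1 library was left out are given with their lowest and highest. For the difference in CD40L response these were Cd274 (-0.23 to 0.10) and Slamf1 (-0.38 to 0.07). The fitted difference of Tnfsf4 (-0.26 to 4.10) rests on Sh3gl1-/- follicular libraries that all had 0 counts, so neither its size nor its sign is read. In the WT CD40L response Slamf1 went from -0.42 (called, without the third cultured library) to 0.03. Between genotypes they were Cd274 in follicular cells (-0.25 to 0.08), Tnfsf4 (-0.70 to 0.23), Cd83 (-0.06 to 0.16) and Slamf1 (-0.12 to 0.33) in cultured cells, and Cd40 (-0.09 to 0.00), Icosl (-0.18 to 0.09), Cd274 (-0.20 to 0.07), Cd83 (-0.08 to 0.18) and Slamf1 (0.00 to 0.17) in transitional cells. For follicular against transitional cells they were Cd80 (-1.28 to 0.19), Cd274 (-0.14 to 0.17) and Slamf6 (-0.08 to 0.04) in WT, Cd40 (-0.03 to 0.07) and Cd274 (-0.15 to 0.14) in Sh3gl1-/- cells, and Cd80 (-1.03 to 0.43), Cd86 (-0.25 to 0.04), Icosl (-0.03 to 0.22) and Cd274 (-0.19 to 0.13) for the difference. Depth limits Tnfsf4 and Cd80 in cells ex vivo, and 3 libraries in a group limit every genotype comparison.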
